A study of Mus musculus with 23 samples.

Results

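The MHC class II genes are described here in the colon of HFD-fed mice across 6 groups. The 8 genes, H2-Aa, H2-Ab1, H2-Eb1, H2-DMa, H2-DMb1, H2-DMb2, Cd74 and Ciita, were taken by their symbol from the 55449 genes of the count table, by a rule that uses no measured value. All 8 had counts in each of the 23 libraries and passed the filter on low counts in every comparison. Most of them went up and down together from library to library, and H2-DMb2 and, to a lesser degree, Ciita had lower fitted values in tumors than the others.

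MHC class II molecules are held at the cell surface by antigen presenting cells (dendritic cells, macrophages and B cells) and display peptides of swallowed proteins to CD4 T cells. H2-Aa and H2-Ab1 encode the α and β chains of I-A, and H2-Eb1 encodes the β chain of I-E. Cd74 is the invariant chain, which fills the peptide groove until it is cut away in the endosome. H2-DMa pairs with the product of H2-DMb1 or H2-DMb2 to form H2-M, the chaperone that exchanges the remnant of Cd74 for a peptide. Ciita is the transactivator on which transcription of all of these genes depends, and interferon γ induces it in cells that otherwise lack class II, including the gut epithelium.

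The mice were male Cdx2Apcf/w animals on a C57BL/6 background, 6 to 8 weeks old at the start, in which Cre under the Cdx2 promoter deletes 1 floxed Apc allele in the colon. All groups carried this genotype and were fed a 60% HFD. They received either BF638R bsh-, Bacteroides fragilis 638R of low BSH activity (BF BSHlow), or BF638R bsh+, the same strain overexpressing bile salt hydrolase (BF BSHhigh). The labels call the BF BSHlow strain WT, whereas the study's methods describe it as carrying an empty vector. BSH is the bacterial enzyme that removes glycine or taurine from conjugated bile acids. No group without the bacterium, without the Apc deletion or on another diet was analysed here. After an antibiotic cocktail the bacteria were given by gavage every 3 days per the study's methods, whereas the labels give a schedule by the week. Normal colon was taken after 2 weeks, with 4 libraries for each strain of bacterium, and non-tumor and tumor tissue after 12 weeks. The study's legend calls the sample sizes of the 12-week libraries pooled, without saying whether mice were combined. These 12-week groups held 4 libraries each, apart from the BF BSHhigh tumors with 3. Nothing states whether non-tumor and tumor libraries of the same number came from the same mouse, and p-values measure the spread between these libraries.

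The libraries held from 12401388 to 17903008 expected counts in total. Epithelial markers were abundant in every library, with a summed level of 8 genes between 4803 and 18347 CPM (counts scaled to the library size). Smooth muscle markers set the groups apart, since 8 genes summed to between 14.1 and 160.5 CPM in the 2-week colon and to between 1216 and 7209 CPM in the 12-week non-tumor tissue. Among the 12-week tissues, 3 libraries stood apart for immune genes. In the BF BSHlow tumors the 8 class II genes summed to 963 CPM in replicate 1, against 90.6, 188 and 156 in the other libraries. Replicate 3 of the BF BSHhigh non-tumor tissues had the highest B cell marker sum (440 CPM against 52.6 to 97.2), and replicate 4 of the BF BSHlow non-tumor tissues the lowest leukocyte marker sum of its group (62.9 CPM against 187 to 324). Since tissue was sequenced in bulk, fewer cells of a type and less RNA per cell cannot be told apart.

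Class II promoters share an upstream module of an X box, bound by the RFX complex, and a Y box, bound by NF-Y, on which Ciita is recruited. RefSeq promoter sequences (GRCm38.p6, 250 bases before to 50 after the start) were at hand for 5 of the 8 genes: H2-Aa, H2-Eb1, H2-DMa, H2-DMb1 and H2-DMb2. The core of the Y box, searched as TGATTGG on both strands, lay on the gene's own strand in 4 of them, at 50 bases before the start in H2-Aa, 61 in H2-Eb1, 63 in H2-DMb1 and 92 in H2-DMb2. A stretch of the X box, searched as AACNGATG on both strands, lay upstream of it in 3, H2-Eb1, H2-DMb1 and H2-DMb2. Of all 32851 promoter entries, 7.82% held the first motif and 2.32% the second on either strand. The motifs do not overlap in these windows, and neither was found in the entries of H2-DMa. A box that differs from the searched letters would not be found, so a missing match does not show that a box is absent. The windows below are shown because they match both motifs (H2-Eb1 and H2-DMb2) or the Y box core alone (H2-Aa), with the motifs in capitals. The first is on the minus strand of chromosome 17 and the others are on the plus strand. By GENCODE M21 the H2-Aa window lies upstream of the gene, the H2-Eb1 window upstream of its first exon and in an intron of the antisense gene Gm20513, and the H2-DMb2 window in an intron of its longest transcript.
H2-Aa, chr17:34287859-34287918: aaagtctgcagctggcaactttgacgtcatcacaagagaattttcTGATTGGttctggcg
H2-Eb1, chr17:34305761-34305820: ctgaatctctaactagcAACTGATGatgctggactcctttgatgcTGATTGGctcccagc
H2-DMb2, chr17:34145112-34145171: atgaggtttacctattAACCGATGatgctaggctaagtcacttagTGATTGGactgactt

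H2-DMb1 and H2-DMb2 are neighbouring copies, and their windows show how alike they are. The 30 bases that end with the Y box core were identical at 27 positions. In H2-DMb1 this stretch lies in the first exon of the GENCODE model.
H2-DMb1, chr17:34153105-34153134: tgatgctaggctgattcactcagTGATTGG
H2-DMb2, chr17:34145134-34145163: tgatgctaggctaagtcacttagTGATTGG
The counts of both genes were not whole in 23 of 23 libraries. RSEM shares reads that match both copies, and the split between them is uncertain. The counts of the other 6 genes were whole in all libraries. H2-DMa shares exon sequence with Brd2, and Ciita with Dexi, both on the opposite strand. Cd74 shares exon sequence with Mir5107 on its own strand.

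Per kilobase of exon, Cd74 was the most abundant of the 8 genes in each group, and Ciita, the regulator, the least. In the BF BSHlow non-tumor tissues the mean level was 254 CPM per kilobase for Cd74. The genes of the I-E β chain and of the I-A chains came next, with 70.3 for H2-Eb1, 54.7 for H2-Ab1 and 49.0 CPM per kilobase for H2-Aa. H2-DMb2, H2-DMb1 and H2-DMa had 10.7, 7.04 and 4.24 CPM per kilobase, and Ciita had 2.07. The pseudogene H2-Ea-ps, which stands for the I-E α chain that C57BL/6 mice do not make, had 0 counts in all 23 libraries. In the library with the smallest scaled size a count of 0 allows a level of up to 0.284 CPM, counting error alone considered.

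Cd74 shows the course that most of the genes took. Its CPM were 177, 40.4, 75.8 and 125 in the BF BSHlow colon at 2 weeks and 402, 222, 324 and 154 in the BF BSHhigh colon. At 12 weeks its CPM were 644, 573, 366 and 121 in the BF BSHlow and 346, 243, 703 and 463 in the BF BSHhigh non-tumor tissues. In tumors its CPM were 481, 44.4, 91.1 and 75.5 with BF BSHlow and 665, 286 and 214 with BF BSHhigh. By mean level the order from low to high was BF BSHlow at 2 weeks, BF BSHlow tumors, BF BSHhigh at 2 weeks, BF BSHhigh tumors, BF BSHlow non-tumor and BF BSHhigh non-tumor. Each pair of neighbours in this order overlapped in range. H2-Aa, H2-Ab1 and H2-Eb1 kept the lowest mean in the BF BSHlow colon at 2 weeks as well, and the highest in the BF BSHhigh non-tumor tissues.

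**Figure D1:**
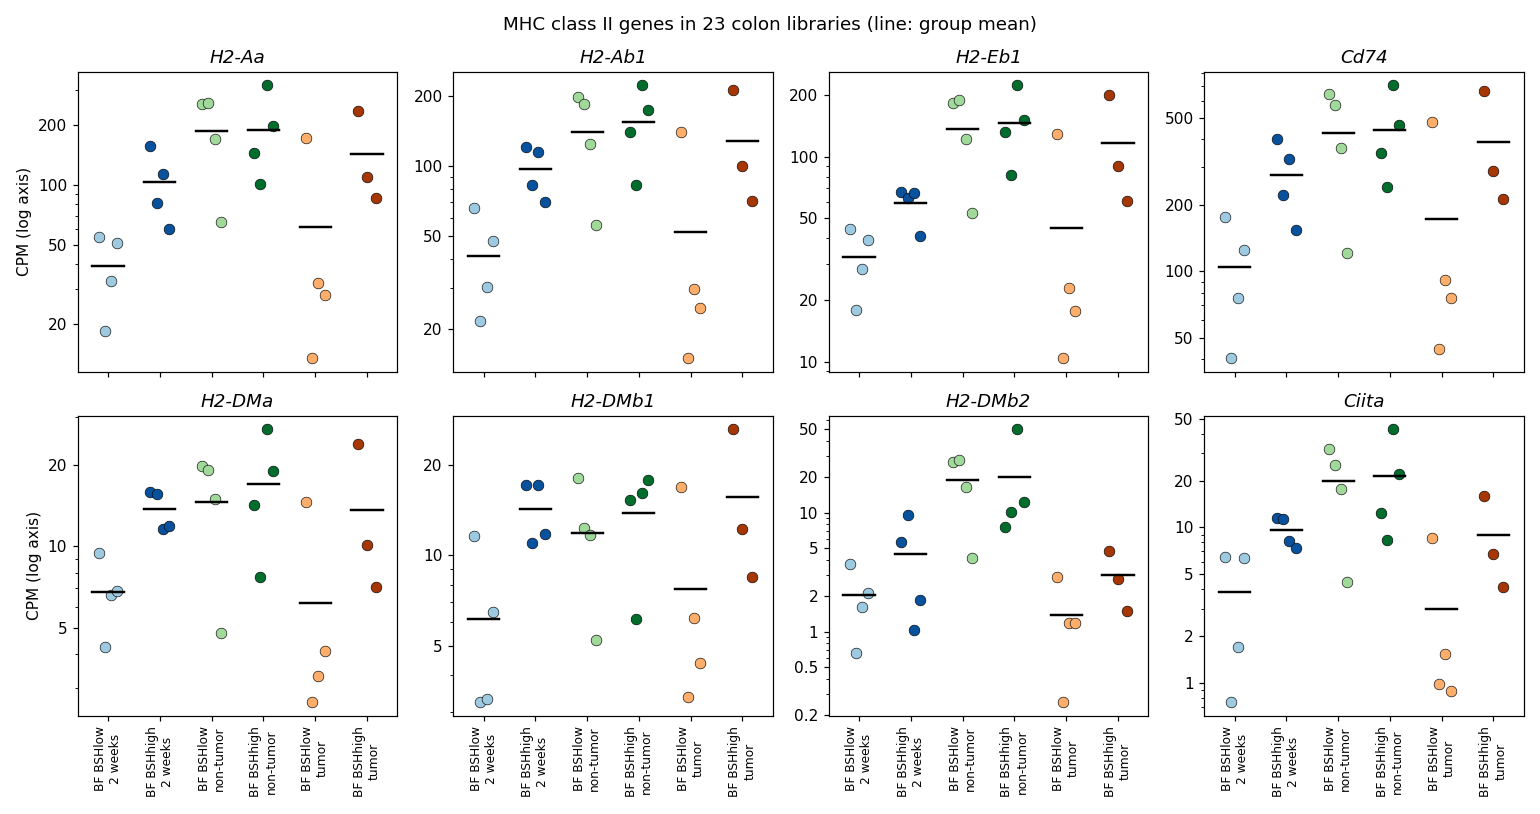
CPM (log axis) of the 8 class II genes in 23 libraries, with 1 point per library and a line at the group mean. Replicate 1 of the BF BSHlow tumors lies above the other 3 tumors of its group for each gene, and H2-DMb2 is low in the tumors of both groups.

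The first comparison asked whether BSH in the bacterium changed class II expression in the colon after 2 weeks, before tumors were sampled. The 8 genes had fitted log2 fold changes of 0.86 to 1.39 in BF BSHhigh over BF BSHlow colon, with a median of 1.21 where the median of all genes was -0.00. Genes counted as changed had to pass an adjusted p of 0.05 by edgeR's quasi-likelihood test with Benjamini-Hochberg adjustment and a log2 fold change of 1 in size. None of the 8 passed, and 0.00727% of all genes tested did. Without adjustment 7 of 8 had p under 0.05, and 5 of these were also past the fold, as were 1.03% of all genes in the same direction.

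The genes of I-A, H2-DMa and Ciita did not overlap between the groups at this time. H2-Ab1 had 65.8, 21.5, 30.3 and 47.5 CPM in the BF BSHlow colon and 120.9, 82.8, 115 and 70.3 CPM in the BF BSHhigh colon. H2-DMa had 9.48, 4.25, 6.63 and 6.82 against 15.8, 15.5, 11.6 and 11.9 CPM. Ciita had 6.45, 0.751, 1.71 and 6.33 against 11.4, 11.4, 8.17 and 7.37 CPM. In each of these genes the lowest BF BSHhigh library was above the highest BF BSHlow library, and H2-Aa showed the same, so that 4 of 8 did not overlap, nor did 2.09% of all genes in this direction. H2-Ab1 had a log2 fold change of 1.23 ± 0.31 (SE, n = 4 and 4, adjusted p = 0.605 by edgeR's quasi-likelihood test), and H2-DMa one of 0.999 ± 0.23 (adjusted p = 0.581). DESeq2 called these 2 genes higher, with adjusted p = 0.0174 for H2-Ab1 and 0.0194 for H2-DMa, and limma-voom called none. Over all alternatives the adjusted p of H2-Ab1 ran up to 0.987.

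The other 4 genes, H2-Eb1, H2-DMb1, Cd74 and H2-DMb2, overlapped. H2-DMb2 was the 1 member of 8 with an unadjusted p over 0.05. Its CPM were 3.72, 0.667, 1.61 and 2.11 in BF BSHlow and 5.63, 9.50, 1.04 and 1.84 in BF BSHhigh colon, with a BF BSHhigh library below 3 of the BF BSHlow libraries (log2 fold change 1.13 ± 0.68, adjusted p = 0.813 by edgeR's quasi-likelihood test). Marker sums moved beside these values. B cell markers (10 genes) summed to 2.34 to 27.8 CPM with BF BSHlow and 8.76 to 75.2 CPM with BF BSHhigh, and their median log2 fold change was 1.28 over the 9 tested. The upper end was replicate 2 of BF BSHhigh alone, and the other libraries of this group had 8.76 to 29.3 CPM. T cell markers summed to 19.997 to 43.1 and 31.6 to 71.7 CPM. Macrophage markers differed little, at 94.3 to 123 and 93.2 to 112 CPM. No marker of these lists was at 0 in every library, and their part in the difference was not tested.

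After 12 weeks the same contrast in non-tumor tissues gave values near 0. The 8 log2 fold changes were between 0.02 and 0.22, with standard errors of 0.40 to 0.70. By edgeR's quasi-likelihood test none was called, with adjusted p between 0.907 and 0.995, and 0% of all genes tested were called either. No member had an unadjusted p under 0.05, and DESeq2 and limma-voom called none. Ciita had 31.8, 25.1, 17.7 and 4.45 CPM in the BF BSHlow and 12.3, 8.34, 42.8 and 22.2 CPM in the BF BSHhigh non-tumor tissues, and the groups overlapped on both sides. The sign rested on single libraries, as leaving out replicate 4 of BF BSHlow put all 8 below 0, and leaving out replicate 3 of BF BSHhigh put 7 of 8 below 0, down to -0.92 for H2-DMb2. The difference between the BSH effect at 12 weeks and at 2 weeks was -1.35 to -0.75 for the 8 genes. As an interaction term it passed for none (adjusted p between 0.681 and 0.893 by edgeR's quasi-likelihood test, 0% of all genes called), with 1 member, H2-Aa, at an unadjusted p under 0.05 and none called by DESeq2 or limma-voom.

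In colon tumors all 8 genes had higher fitted levels with BF BSHhigh, and none passed the test. The log2 fold changes were between 0.997 for H2-DMb1 and 1.54 for Ciita, with a median of 1.17 against -0.03 over all genes tested. H2-Aa had 171, 13.5, 32.3 and 28.0 CPM in the BF BSHlow tumors and 234, 109.8 and 86.0 CPM in the BF BSHhigh tumors. The 3 BF BSHhigh tumors were above 3 of the 4 BF BSHlow tumors, and replicate 1 lay between them. Each of the 8 overlapped between the groups, and 7.93% of all genes were higher without overlap. By edgeR's quasi-likelihood test the adjusted p were between 0.519 and 0.620, none had an unadjusted p under 0.05, and 0.476% of all genes were called. DESeq2 and limma-voom called no member.

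Without replicate 1 of the BF BSHlow tumors, the log2 fold changes were larger, at 2.54 for H2-Aa and 2.98 for Ciita, and again no member passed. Without replicate a of the BF BSHhigh tumors they were between 0.40 and 0.83. Replicate 1 also had the highest macrophage sum of its group (447 CPM against 162 to 332) and the highest leukocyte sum (215 against 87.7 to 145 CPM), whereas its B cell sum of 2.95 CPM lay among the others. T cell markers summed to 14.8 to 29.6 CPM in the BF BSHlow and 50.1 to 62.7 CPM in the BF BSHhigh tumors, and 10 of 10 had a fitted value above 0, none past the test. Markers of mature colonocytes and goblet cells were called higher in the BF BSHhigh tumors for 4 of 10 genes (99.7 to 210 against 516 to 4125 CPM in sum). The part of these cells in the class II values was not tested. The BSH effect in tumors was larger than in non-tumor tissues by 0.79 to 1.44 on the log2 scale, a difference that passed for 0 of 8 as an interaction term (adjusted p between 0.785 and 0.870 by edgeR's quasi-likelihood test, 0.978% of all genes called). Here no unadjusted p was under 0.05, and DESeq2 and limma-voom called none.

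**Figure D2:**
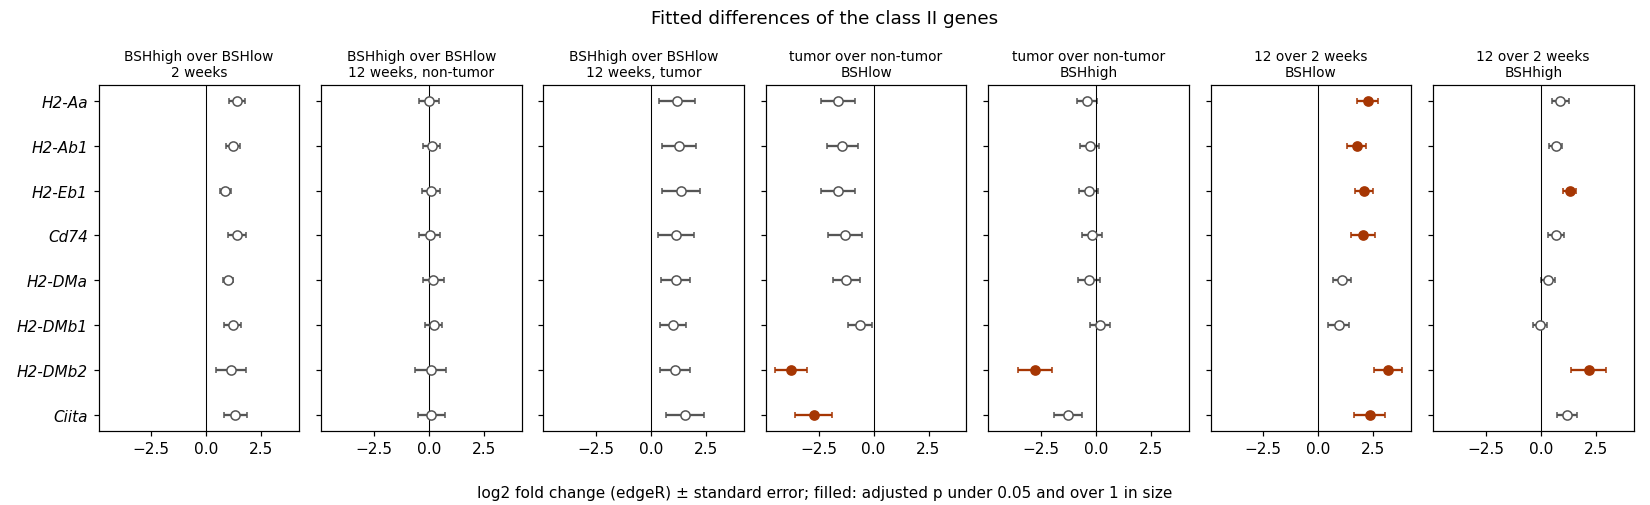
Log2 fold changes with standard errors of the 8 genes in 7 comparisons, fitted with edgeR. Filled points passed both thresholds, and they are found in the tumor and time comparisons only, with H2-DMb2 in all 4 of these.

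Tumors were next compared with non-tumor tissues within each group. These comparisons share their tumor and non-tumor libraries with those above. In both groups 8 of 8 smooth muscle markers were called lower in tumors. Of all genes, 17.6% with BF BSHlow and 15% with BF BSHhigh were. The marker sums were 1216 to 7209 CPM in non-tumor tissues and 137 to 255 CPM in tumors with BF BSHlow. With BF BSHhigh they were 2748 to 3720 and 187 to 319 CPM. A change in the layers of the wall that were sampled therefore cannot be told apart from the tissue label. H2-DMb2, the second DM β chain, had the largest difference. Its CPM were 26.8, 27.5, 16.4 and 4.20 in the BF BSHlow non-tumor tissues and 2.90, 0.257, 1.19 and 1.17 in the tumors. With BF BSHhigh they were 7.63, 10.1, 50.0 and 12.3 in non-tumor tissues and 4.76, 2.77 and 1.48 in tumors. Every tumor was below every non-tumor library, in both groups. H2-DMb2 was the 1 member of 8 without overlap, and 27.7% of all genes with BF BSHlow and 29.4% with BF BSHhigh were lower in this way.

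In BF BSHlow mice 2 of 8 genes were called lower in tumors, where 17.6% of all genes were. H2-DMb2 fell by 3.75 ± 0.74 on the log2 scale (adjusted p = 0.00193 by edgeR's quasi-likelihood test) and Ciita fell by 2.72 ± 0.85 (adjusted p = 0.0201). Ciita had 31.8, 25.1, 17.7 and 4.45 CPM in non-tumor tissues and 8.59, 0.975, 1.53 and 0.880 CPM in tumors, so that replicate 1 of the tumors was above replicate 4 of the non-tumor tissues. The other 6 genes had log2 fold changes between -1.60 and -0.62 and adjusted p between 0.101 and 0.348. The count depended on the fit and on replicate 1 of the tumors. Limma-voom called 5 of 8, one fit of all libraries 6, and a fit with the replicate number as a block 6 as well. H2-Aa, H2-Ab1 and H2-Eb1 were among them in each of these fits. Nothing states whether equal numbers mark the same mouse. Without replicate 1 all 8 passed, with H2-Aa at -2.95 and Cd74 at -2.63. The call of Ciita was lost without replicate 1 of the non-tumor tissues (adjusted p = 0.0519), whereas that of H2-DMb2 held under all 14 alternatives with an adjusted p of at most 0.012.

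In BF BSHhigh mice H2-DMb2 was the only member called, and fell by 2.76 ± 0.77 on the log2 scale (n = 4 and 3, adjusted p = 0.0151 by edgeR's quasi-likelihood test), where 15% of all genes were called lower. Its call was lost without replicate b of the tumors (adjusted p = 0.0545) and without replicate c (adjusted p = 0.0528). Ciita had a log2 fold change of -1.28 ± 0.64 (adjusted p = 0.118), and DESeq2 called it (adjusted p = 0.0387). The remaining 6 were between -0.41 and 0.17, with Cd74 at -0.19 ± 0.46.

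The 2 DM β chains were set against each other within each library, by a ratio chosen after the values were seen and therefore given without a test. The log2 ratio of H2-DMb2 to H2-DMb1 was 0.56, 1.16, 0.49 and -0.32 in the BF BSHlow non-tumor tissues and -2.54, -3.72, -2.38 and -1.91 in the tumors. In the BF BSHhigh non-tumor tissues it was -1.0, 0.71, 1.63 and -0.54, and in the tumors -2.47, -2.14 and -2.52. No tumor reached the lowest non-tumor library. The difference of the means, tumors minus non-tumor tissues, was -3.11 with BF BSHlow and -2.58 with BF BSHhigh. Without any 1 library the first difference lay between -3.37 and -2.75, and the second between -2.98 and -2.10. At 2 weeks the mean ratio was -1.65 ± 0.51 with BF BSHlow and -2.14 ± 1.62 with BF BSHhigh (SD, n = 4 each). For BF BSHlow mice the mean ratio at 12 weeks was higher by 2.12 than at 2 weeks. The normal colon at 2 weeks lay nearer to the tumors than to the 12-week non-tumor tissues in this ratio. The ratio moves with H2-DMb1 as well as with H2-DMb2, and it carries the uncertain split of reads that match both copies. Set against H2-Aa, the mean log2 ratio of H2-DMb1 was higher in tumors than in non-tumor tissues, by 1.32 with BF BSHlow and by 0.53 with BF BSHhigh.

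Ciita was set against Cd74, one of its targets, in the same way. The mean log2 ratio of Ciita to Cd74 was -4.50 ± 0.20 in non-tumor tissues and -5.91 ± 0.38 in tumors with BF BSHlow (SD, n = 4 each), a difference of -1.41. With BF BSHhigh it was -4.52 ± 0.39 (n = 4) and -5.50 ± 0.17 (n = 3), a difference of -0.97. In both groups every tumor was below every non-tumor library. Between the tumors of BF BSHlow and BF BSHhigh mice the ratio of Ciita to Cd74 differed by 0.41, and that of H2-DMb2 to H2-DMb1 by 0.26.

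**Figure D3:**
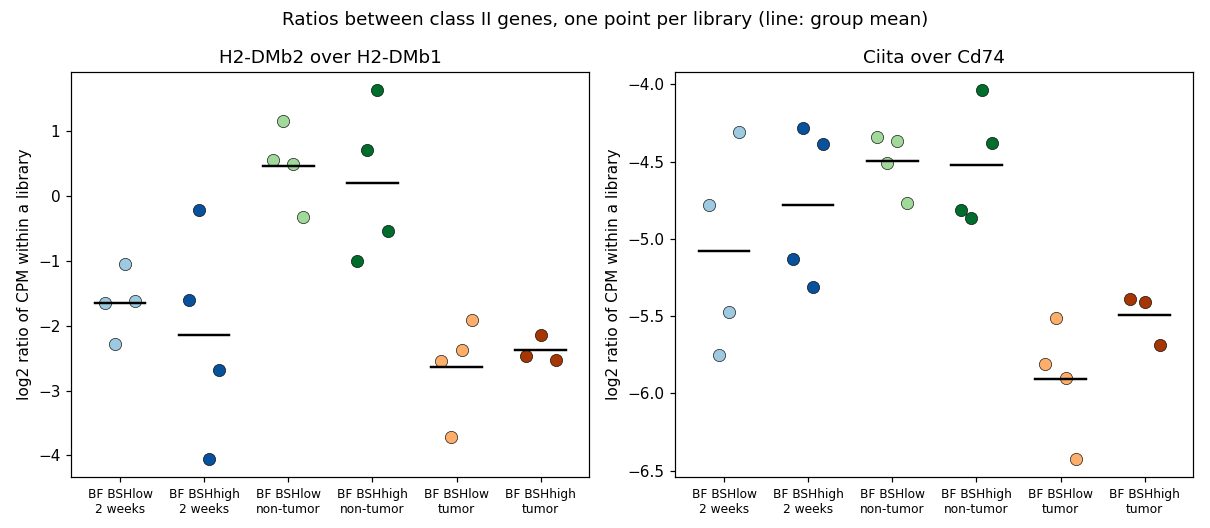
Log2 ratios of H2-DMb2 to H2-DMb1 and of Ciita to Cd74 within each library, with a line at the group mean. The 7 tumors lie below all 8 non-tumor tissues in both panels, and the mean ratio of H2-DMb2 to H2-DMb1 at 2 weeks is also below 0.

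The 12-week non-tumor tissues were last compared with the normal colon at 2 weeks, where time and tissue label change together. These comparisons share the non-tumor libraries with those of tumors. In BF BSHlow mice 6 of 8 genes rose, where 15.1% of all genes were called higher. The largest rise was again that of H2-DMb2, by 3.18 ± 0.63 on the log2 scale (adjusted p = 0.00311 by edgeR's quasi-likelihood test). Ciita rose by 2.34 ± 0.70, H2-Aa by 2.24 ± 0.46, H2-Eb1 by 2.06 ± 0.41, Cd74 by 2.02 ± 0.55 and H2-Ab1 by 1.75 ± 0.43. The call of Ciita was lost by limma-voom (adjusted p = 0.0801), without replicate 3 at 2 weeks (0.0548) and without replicate 1 of the non-tumor tissues (0.0621). H2-DMa (1.09 ± 0.41, adjusted p = 0.0561) and H2-DMb1 (0.92 ± 0.47, adjusted p = 0.141) did not pass. H2-Aa, H2-Eb1 and H2-DMb2 did not overlap between the times, and 21.5% of all genes were higher in this way.

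In BF BSHhigh mice 2 of 8 rose, where 15.9% of all genes were called higher. H2-Eb1 had 67.0, 63.0, 66.8 and 41.0 CPM at 2 weeks and 131, 81.4, 223 and 151 CPM at 12 weeks, without overlap, as 25.2% of all genes (log2 fold change 1.32 ± 0.28, adjusted p = 0.00399 by edgeR's quasi-likelihood test). This call was lost in one fit of all libraries (adjusted p = 0.0791). H2-DMb2 rose by 2.18 ± 0.78 (adjusted p = 0.0413), a call that was lost by limma-voom (adjusted p = 0.0801) and in 5 of 8 fits that left out 1 library, with 1.13 and an adjusted p of 0.167 without replicate 3 of the non-tumor tissues. The other 6 genes were between -0.04 and 1.18. H2-DMb1 was the lowest in both groups, with -0.04 ± 0.31 here.

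Other genes of the class II locus went further than most of the 8. H2-Oa and H2-Ob encode H2-O, which restrains H2-M and is made mainly by B cells and thymic epithelium, and H2-Eb2 is a further β chain gene of the locus. All 3 were called lower in tumors in both groups, as were 17.6% of all genes with BF BSHlow and 15% with BF BSHhigh. H2-Ob had 3.36 to 21.1 CPM in the BF BSHlow non-tumor tissues and 0.0489 to 1.13 CPM in the tumors, and 6.38 to 43.2 and 0.715 to 3.16 CPM with BF BSHhigh. The BF BSHlow tumors held 1 to 23 counts of H2-Ob, 1 to 15 of H2-Oa and 0 to 6 of H2-Eb2. The size of the falls there rests on few reads. H2-Ob fell by 4.59 ± 0.85 (adjusted p = 0.00133 by edgeR's quasi-likelihood test) and by 3.43 ± 0.93 (adjusted p = 0.0127) on the log2 scale. From 2 to 12 weeks 3 of 3 rose with BF BSHlow and H2-Oa alone with BF BSHhigh. Of all genes, 15.1% with BF BSHlow and 15.9% with BF BSHhigh were called higher over this time. No gene of this list passed in a contrast of BSH.

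B cell markers took the same direction as H2-DMb2 and these genes. In tumors 10 of 10 were called lower with BF BSHlow and 9 of 10 with BF BSHhigh, and from 2 to 12 weeks 10 and 8 of 10 were called higher. Their sums were 15.2 to 227 CPM in the BF BSHlow non-tumor tissues and 0.770 to 5.10 CPM in the tumors, and 52.6 to 440.3 and 5.09 to 18.7 CPM with BF BSHhigh. Of all genes tested, 17.6% with BF BSHlow and 15% with BF BSHhigh were called lower in tumors, and 15.1% and 15.9% higher over time. Dendritic cell markers were called lower in tumors for 5 of 10 genes with BF BSHlow. With BF BSHhigh 1 of 9 tested was, near the share of all genes. Macrophage markers summed to 118 to 286 CPM in non-tumor tissues and 162 to 447 CPM in tumors with BF BSHlow, and to 218 to 308 and 324 to 487 CPM with BF BSHhigh. Of these 10 markers, Mertk was called lower in tumors in both groups, 2 (Cd68 and Fcgr1) were called higher with BF BSHhigh and 0 with BF BSHlow. Among all genes, 14.6% with BF BSHhigh and 16.1% with BF BSHlow were called higher in tumors. None of the B cell, dendritic cell and macrophage markers was at 0 in every library, and their part in the class II values was not tested. From 2 to 12 weeks 9 of 10 macrophage markers, all but Mertk, which was called lower, and 8 of 8 smooth muscle markers were called higher in both groups, so a change in the layers of the wall that were sampled cannot be told apart from time.

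**Figure D4:**
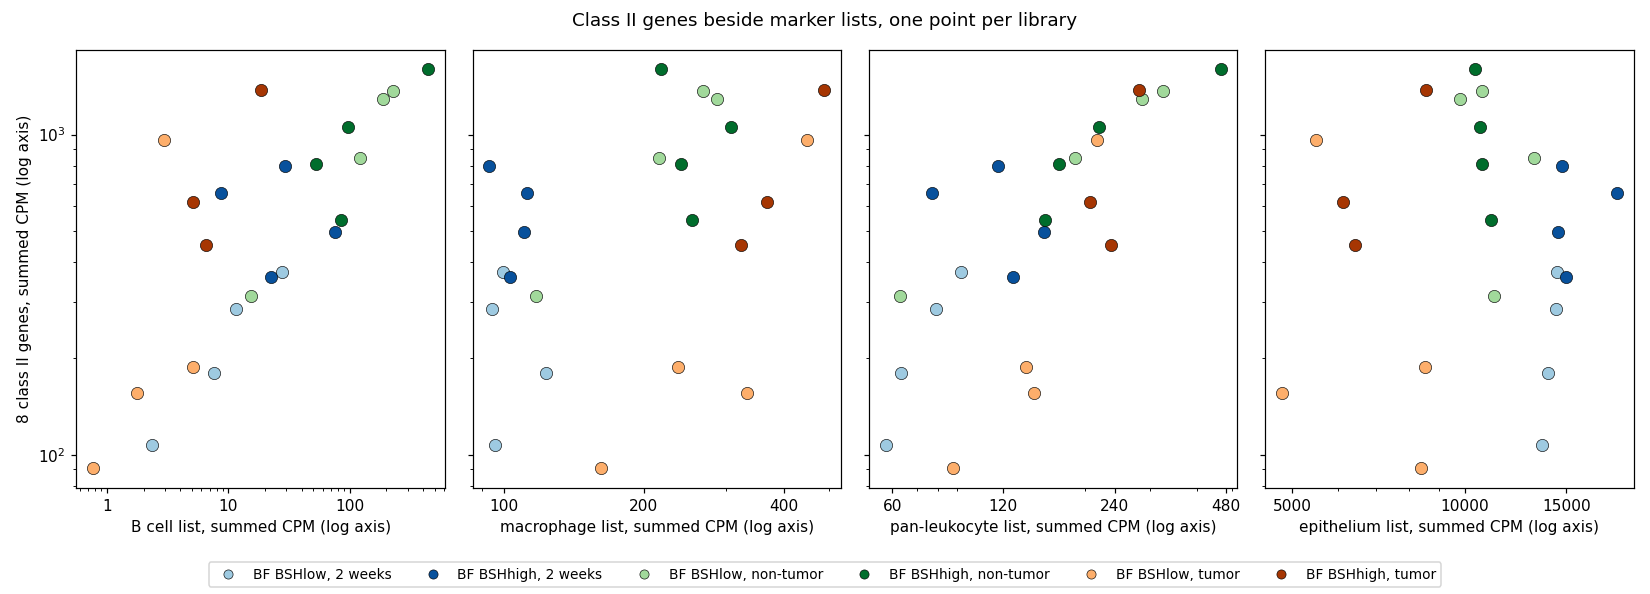
Summed CPM of the 8 class II genes against summed CPM of 4 marker lists, with 1 point per library and log axes. The 7 tumors lie to the left of the other libraries with a like class II sum in the B cell panel, and to the right in the macrophage panel.

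The transcription factors that bind the X and Y boxes differed little from all genes. Of the 7 genes Rfx5, Rfxap, Rfxank, Nfya, Nfyb, Nfyc and Creb1, only Rfxank, a subunit of the RFX complex, was called in any comparison. Rfxank fell by 1.33 ± 0.12 in BF BSHlow and by 1.04 ± 0.12 in BF BSHhigh tumors on the log2 scale. The median of the list in these contrasts was 0.34 and 0.15, against 0.05 and 0.04 over all genes tested. No factor was called for BSH or for time.

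The route from interferon γ to Ciita was followed in 7 genes. Ifng, the cytokine itself, had at most 11 counts in any library and 0 in 11 of 23, so it was not tested. Ifngr1, which encodes the ligand-binding chain of the receptor, fell by 2.09 ± 0.17 in BF BSHlow and by 1.14 ± 0.13 in BF BSHhigh tumors against non-tumor tissues. Irf1, a factor that acts on the Ciita promoter, fell by 1.35 ± 0.19 in BF BSHlow tumors. Between tumors of both groups 6 of 6 tested genes had fitted values above 0, with Irf1 at 1.37 ± 0.27 (adjusted p = 0.0705 by edgeR's quasi-likelihood test), and none passed. Their median was 0.47 against -0.03 over all genes. At 2 weeks these 6 had values between 0.04 and 0.42, and none passed. Socs1, an inhibitor of the route, was called higher in BF BSHhigh tumors than in non-tumor tissues (1.09 ± 0.34) and lower at 12 weeks than at 2 weeks with BF BSHlow.

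Among 7 enzymes that prepare peptides or cut Cd74, tumors had lower levels of Ctss, the protease of the last cuts of Cd74. It fell by 2.22 ± 0.35 with BF BSHlow and by 1.34 ± 0.26 with BF BSHhigh on the log2 scale. Ifi30, a thiol reductase of the endosome, and Sppl2a, which clears the membrane stub of Cd74, were called lower with BF BSHlow only, at -1.72 ± 0.19 and -1.34 ± 0.08, and a difference between the groups passed for none of the 7 as an interaction term. Their values with BF BSHhigh were -0.98 ± 0.22 and -0.97 ± 0.26, just short of the fold. Lgmn, an asparaginyl protease, rose by 1.24 ± 0.20 and 1.32 ± 0.15. Ctsl, Ctsb and Ctsh were called in no comparison, and no enzyme was called for BSH or time. Of the turnover genes, March1, the ubiquitin ligase that removes class II from the surface, rose from 2 to 12 weeks by 2.96 ± 0.49 with BF BSHlow and by 2.26 ± 0.46 with BF BSHhigh, whereas March8 and Cd83 were called in none.

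**Figure D5:**
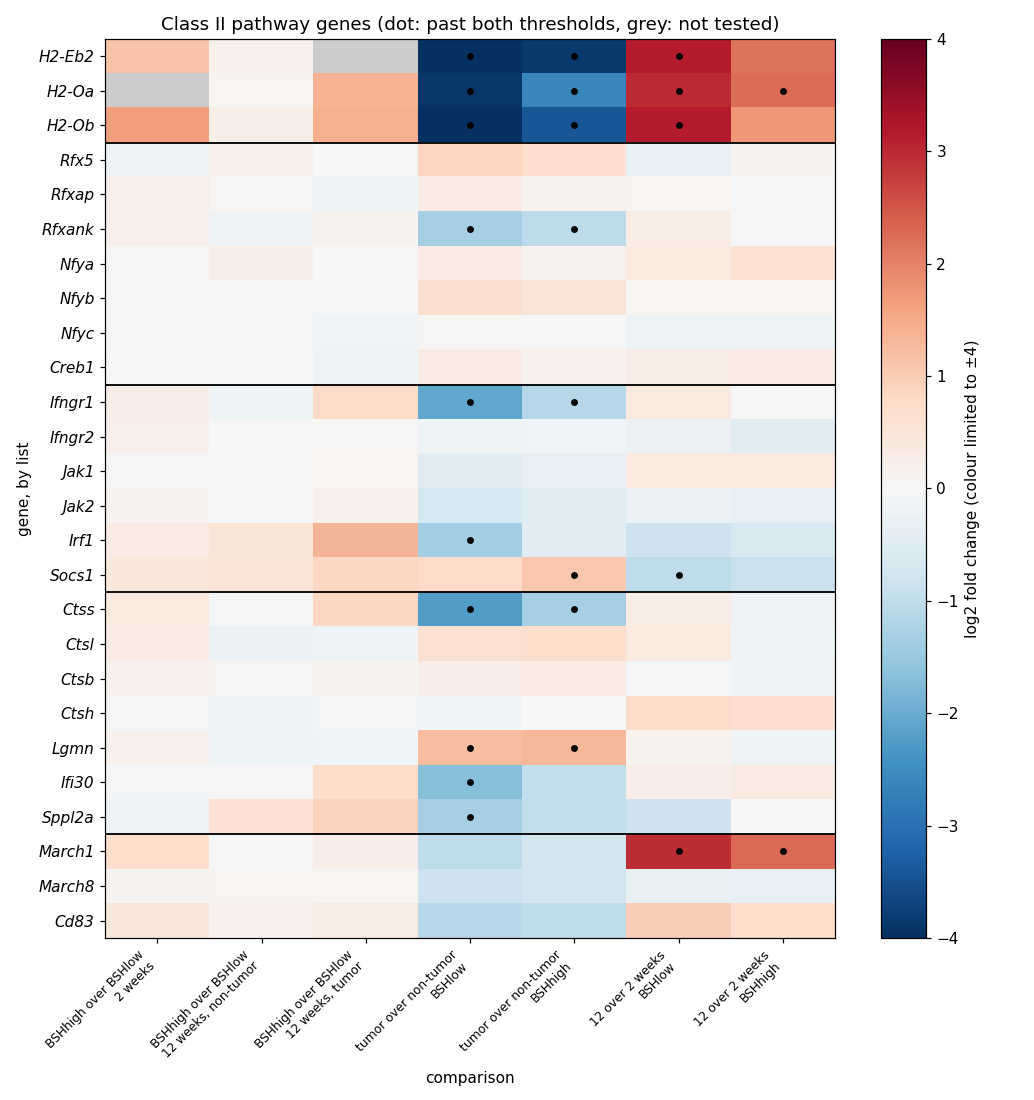
Log2 fold changes of 26 class II pathway genes in 7 comparisons, as colours limited to 4 in size, with a dot where a gene passed both thresholds. The dots lie in the tumor and time columns, and none is in the 3 columns for BSH.

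On the side of the responding T cell, 5 genes were followed: Cd4, Lag3, Cd3e, Cd28 and Icos. Cd28, the receptor of Cd80 and Cd86, fell by 3.0 ± 0.72 in BF BSHlow tumors, and Icos rose by 1.62 ± 0.43 and Cd3e by 1.19 ± 0.43 in BF BSHhigh tumors on the log2 scale. None of the 5 was called between the tumors of both groups, where their median was 2.31 against -0.03 over all genes. From 2 to 12 weeks 2 of 5 rose with BF BSHlow, Cd4 by 2.46 ± 0.51 and Cd28 by 2.35 ± 0.68. With BF BSHhigh 3 of 5 rose, Cd4 by 1.96 ± 0.59, Cd28 by 2.08 ± 0.54 and Icos by 2.30 ± 0.53, and Cd3e fell by 1.67 ± 0.41. Over this time 15.1% of all genes with BF BSHlow and 15.9% with BF BSHhigh were called higher, and 7.34% with BF BSHhigh lower. Of the costimulators on the presenting cell, Cd80 rose in tumors by 1.19 ± 0.44 and 1.54 ± 0.42, while Icosl fell by 1.99 ± 0.16 and 1.55 ± 0.22. Cd86 rose with time in both groups, by 1.76 ± 0.49 and 1.76 ± 0.34.

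The 8 genes moved together across the 23 libraries. The Pearson correlation of each gene's log2 CPM with the mean of the other 7 was between 0.82 for H2-DMb2 and 0.99 for H2-Ab1, with 0.87 for H2-DMb1. H2-DMb1 and H2-DMb2 were the pair least alike, at 0.59. RSEM divided the reads that match both of these copies, and the uncertainty of that split enters this value. The libraries share groups and depth, so these are descriptions of 23 points. The genes with the pattern most like the mean of the 8, of 14380 compared, were Unc93b1 (r = 0.92), Cyfip2, Il16, Blk, Ccr6, Itgb7, Ifi203, Kmo, Ifi209 and Btla (r = 0.87). Once the group means were taken out, 3 of these 10 remained among the first 10, and by Spearman's rank correlation 4 did.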

How the data were processed

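Colon RNA of 23 libraries was analysed, each from a sample that the labels list separately. Per the labels the libraries were made with a stranded total RNA kit, whereas the study's methods name a stranded mRNA kit. The authors deposited expected counts per gene from RSEM, without normalization, after trimming (Cutadapt), alignment to mm10 (STAR) and a check of the mapping (Picard). RSEM divides reads that match several genes, and 4.24% of the values were not whole. The identifiers of all 55449 genes were found in GENCODE M21 (GRCm38), 1 row without a name was dropped, and Fgf6 was left out because a cell holds text. The columns of the 3 BF BSHhigh tumors name no sample. They were assigned as a group through the study's own table of the same values, and are called replicates a, b and c. Columns of other samples used: 0.

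Total expected counts were between 12401388 and 17903008 (median 15874872). The upper limit given for the level of the I-E α chain pseudogene covers counting error only. Values after ± are standard errors of the edgeR fit, or SDs where marked, and include the spread between libraries. In 33 pairs of replicates of the same group, chi-square values of 16.6 to 126 for each degree of freedom (genes of 20 or more counts) showed no library deposited again within its group. Pairs across groups were not compared in this way.

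The expected counts were rounded, then tested with edgeR 4.0.16 (R 4.3.3): TMM scaling, filterByExpr, glmQLFit and glmQLFTest, with Benjamini-Hochberg adjustment over all genes tested. A gene was called at an adjusted p under 0.05 and a log2 fold change over 1 in size. Each comparison was fitted on its own libraries, and differences between effects as interaction terms. CPM were scaled by TMM over all 23 libraries. Correlations used log2 CPM with a prior count of 2, over genes with a mean of at least 1 CPM. Ratios between members are given without a test. The code was tested on simulated counts with 200 changed genes. Alternatives were DESeq2 1.42.0, limma-voom (limma 3.58.1), RLE scaling, no filter on low counts, all libraries in one fit, each library left out, and the replicate number as a block.

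Named were the 8 members in every comparison, the genes of 7 pathway lists (1 gene of the interferon γ list is not reported here), and the 10 genes most like the members. Cell type lists of 6 to 10 genes are given by count and sum. The members and lists were chosen with earlier results of these data known, and the ratios and promoter motifs after the values were seen. Promoters came from RefSeq (GRCm38.p6).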

Additional observations from a re-analysis of the deposited data

Results flagged for a closer look

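In groups of 4 libraries, the highest or lowest value was set against the gap that Dixon's 95% limit allows, and 8 of 40 groups of the class II genes passed it. Chance alone passes about 1 in 20. Of the 8, 6 concern replicate 1 of the BF BSHlow tumors, which was far above the other 3 tumors for H2-Aa (171 CPM), H2-Ab1 (139 CPM), H2-Eb1 (129 CPM), Cd74 (481 CPM), H2-DMa (14.6 CPM) and Ciita (8.59 CPM). These 6 are not independent, since the genes move together. The same library had 16.9 CPM of H2-DMb1 and 2.90 CPM of H2-DMb2, which were within the limit though highest in the group. H2-Eb1 was lowest in replicate 4 of the BF BSHhigh colon at 2 weeks (41.0 CPM against 63.0 to 67.0 in the others). H2-DMb2 was highest in replicate 3 of the BF BSHhigh non-tumor tissues (50.0 CPM against 7.63 to 12.3), the library that also had the highest B cell marker sum, 440 CPM. The part of B cells in this value was not tested.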

How the results depend on the processing

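Of the 272 alternative counts of members called, 254 stayed within 1.5 times the count reported. The exceptions were as follows. In tumors against non-tumor tissues with BF BSHlow, 5 members were called lower by limma-voom and 6 in one fit of all libraries, against 2, and 1 to 8 when each library was left out. With BF BSHhigh DESeq2 called 2 against 1, and leaving out libraries gave 0 to 2. At 2 weeks DESeq2 called 2 members higher for BSH against 0. From 2 to 12 weeks with BF BSHhigh, limma-voom and one fit of all libraries called 1 higher against 2, and leaving out libraries gave 1 to 4; with BF BSHlow it gave 5 to 8 against 6. The causes were not tested.

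For single members, 29 of 1088 refits reversed the sign, all of values that had not passed. Of these, 27 left out 1 library. For BSH in non-tumor tissues, leaving out libraries gave -0.35 to 0.22 for H2-Aa, -0.13 to 0.35 for H2-Ab1, -0.19 to 0.30 for H2-Eb1, -0.11 to 0.45 for H2-DMa, -0.028 to 0.51 for H2-DMb1, -0.92 to 0.38 for H2-DMb2, -0.29 to 0.32 for Cd74 and -0.48 to 0.45 for Ciita. For BF BSHhigh tumors against non-tumor tissues it gave -0.87 to 0.0082 for H2-Ab1, -0.42 to 0.48 for H2-DMb1 and -0.82 to 0.13 for Cd74. Over time with BF BSHhigh it gave -0.026 to 0.54 for H2-DMa and -0.20 to 0.18 for H2-DMb1. H2-DMb2 in non-tumor tissues was -0.0097 by limma-voom.

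Counts over all genes moved more. For BSH in tumors 71 were called higher and 2 lower, against 489 and 45 by DESeq2, 40 and 1 by limma-voom, 308 and 12 without a filter, 566 and 12 in one fit of all libraries, and 0 to 234 and 0 to 6 when a library was left out. For BSH in non-tumor tissues DESeq2 called 39 and 14 and one fit of all libraries 1 lower, against 0. For BSH at 2 weeks DESeq2 called 20 and 8, no filter 4 and 1, and one fit of all libraries 1 lower, against 1 and 0, and leaving out libraries gave 0 to 34 and 0 to 3. The effect in tumors minus that in non-tumor tissues gave 160 and 1, against 378 and 8 by DESeq2, 0 and 0 by limma-voom, 260 and 3 in one fit, and 86 to 334 and 0 to 5 without a library. The effect at 12 weeks minus that at 2 weeks gave 14 and 8 by DESeq2, 1 higher in one fit, and 0 to 4 higher without a library, against 0.

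The correlations of deviations of same-numbered libraries lay between -0.173 and 0.26. Such values cannot decide whether the replicate numbers pair the libraries. With the replicate block, 6 members were called lower in BF BSHlow tumors (H2-Aa, H2-Ab1, H2-Eb1 and Cd74 beside H2-DMb2 and Ciita), 5 higher over time with BF BSHlow, without Ciita (adjusted p = 0.0657), 1 higher over time with BF BSHhigh, and H2-DMb2 in non-tumor tissues was -0.049. Over all genes the block called 1 higher for BSH in non-tumor tissues, 0 higher and 1 lower for BSH at 2 weeks, and 1 higher for the effect at 12 minus 2 weeks. No paired analysis was possible because the columns of the BF BSHhigh tumors carry no numbers, for the comparisons that use them. RLE scaling changed no count of members. Ratios within a library do not depend on the scaling.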
